A study of Rattus norvegicus with 102 samples.

Results

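The genes described here are 10 members of the inhibitory interneuron programme, measured in 3 hippocampal subfields of young and aged rats. They were taken by symbol from 3 gene tables of the same tissue samples: Gad1, Gad2, Slc32a1, Sst, Pvalb, Vip, Npy, Cck, Reln and Lhx6. Each symbol matched 1 row in each table, so 10 genes of the 26284 listed in the Illumina and WT tables and of the 26341 listed in the Ion Proton table are described. The symbols were not chosen by a value in these tables, but the list was drawn up with other results from the tables known.

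Male Fischer 344 rats (spelled Fisher 344 in the labels), with no transgene or treatment named, were grouped by age and by a water maze score. There were 10 young rats of 5 to 6 months (Y), 12 aged rats of 17 to 22 months without a memory impairment (OG) and 12 aged rats of the same ages with one (OB). CA1, CA3 and dentate gyrus (DG) were dissected from each of the 34 rats after maze training, which gave 102 libraries in each of 3 tables: Illumina poly-A, Ion Proton poly-A and a table named WT. Rats carried numbers below 9000 (18 rats: 5 young, 6 aged unimpaired, 7 aged impaired) or from 9000 up (16 rats: 5, 6 and 5). The subfields are blocks of tissue that hold pyramidal or granule cells, glia and interneurons together, so that fewer cells of a type and less RNA per cell cannot be told apart.

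Interneurons make GABA, the main inhibitory transmitter of the brain, from glutamate with the decarboxylases GAD67 (Gad1) and GAD65 (Gad2), and the transporter VGAT (Slc32a1) loads it into vesicles. Interneurons are a small share of hippocampal neurons and are divided into classes by what else they make: somatostatin, parvalbumin, vasoactive intestinal peptide, neuropeptide Y, cholecystokinin or reelin. The transcription factor Lhx6 is kept by the classes that arise in the medial ganglionic eminence of the embryo, among them the somatostatin and parvalbumin cells.

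Counted reads per library were 3.25 to 42.8 M in the Illumina table, 4.47 to 21.4 M in the Ion Proton table and 3.54 to 20.6 M in the WT table. By CA1 pyramidal, CA3 pyramidal and dentate granule cell markers, 12 of the 102 libraries lay nearer to another subfield than to their own label in both poly-A tables (8 CA3, 3 DG and 1 CA1 library, from 10 rats, 9 of them numbered from 9000 up). In the libraries labelled CA3, the summed CA3 pyramidal markers ran from 7917 to 15634 normalised reads in rats numbered below 9000 and from 2073 to 7772 in rats from 9000 up, with no overlap. CA3 pyramidal markers were not lowest in DG: of 9 tested, 1 was higher and 3 were lower in CA3 than in DG, while 9 of 9 dentate granule markers were lower in CA3 than in DG. The 5 oligodendrocyte markers were higher in CA1 and in CA3 than in DG, with a median log2 difference of 0.73 and 0.90. Their part in the results below was not tested, but each count of members is also given without the 12 libraries and within each rat number series where it changes.

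Levels are normalised reads, that is, reads of a gene divided by a size factor of the library. They are compared between samples of a gene and not between genes, since no transcript lengths were used. Subfields were compared with limma on log2(normalised reads + 1) over all 102 libraries, and a gene was called when the adjusted p was under 0.05 in the Illumina and in the Ion Proton table with 1 direction. In the age and memory comparisons each library is from a separate rat, so those p-values measure the spread between rats. The subfield fit had no term for the rat, and the libraries of a rat entered it separately. Its p-values therefore measure the spread between libraries, and a block on the rat was run as an alternative.

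The clearest difference was between the CA fields and the dentate gyrus. In CA1, 5 of the 9 members tested were higher than in DG (Slc32a1, Pvalb, Vip, Cck and Reln), against 26.9% of all 13907 genes called in either direction and 13.4% called higher. In CA3, 5 of 9 were higher than in DG (Slc32a1, Pvalb, Cck, Reln and Lhx6), against 28.5% of all genes called and 14.1% called higher. None of the 9 was called between CA1 and CA3 (0 of 9, against 14.4% of all genes, 7.26% called higher and 7.09% lower in CA1), although Vip and Lhx6 passed in the Illumina table. Those 2 had an unadjusted limma p under 0.05 in both poly-A tables, and on whole reads edgeR called 1 member (Vip) and DESeq2 called 2 (Vip and Lhx6), against 15.5% and 16.6% of all genes by those tools. None of the 9 was called lower in a CA field than in DG, against 13.5% of all genes for CA1 and 14.3% for CA3. Npy had too few reads in the Illumina and WT tables to pass the filter there, and its Ion Proton differences of both CA fields from DG were negative.

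**Figure D1:**
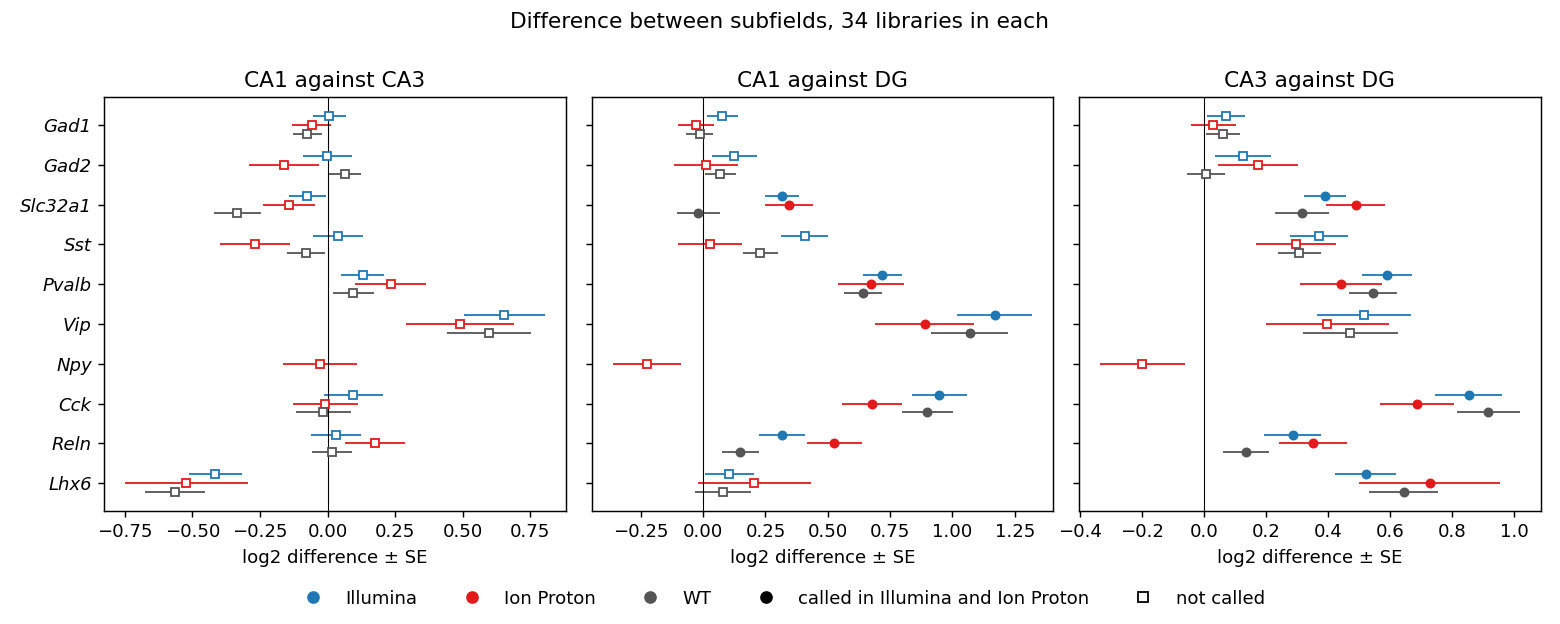
Log2 difference between subfields for each member (x axis, log2 of normalised reads + 1, first subfield minus second) with its standard error as a bar, in the Illumina, Ion Proton and WT tables. Filled points are members called in both poly-A tables. Between CA1 and DG, Vip, Cck and Pvalb lie furthest to the CA1 side in each table, while Gad1 and Gad2 are not called in any of the 3 comparisons.

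Neither of the GABA-making enzymes was called between subfields. Gad1 (ENSRNOG00000000007, chromosome 3), which encodes GAD67, the form found throughout the cell, ranged in the Illumina table from 2069 to 4026 normalised reads in CA1 with a median of 3125, from 1953 to 3697 in CA3 with a median of 3144, and from 1641 to 4484 in DG with a median of 2894. The 3 ranges overlapped nearly whole, and Gad1 was higher in CA1 than in DG in 19 of 34 rats. The log2 difference of CA1 from DG was 0.08 (95% interval -0.04 to 0.20, limma adjusted p = 0.281) and that of CA1 from CA3 was 0.01 (-0.11 to 0.13, adjusted p = 0.946). Gad2 (ENSRNOG00000018200, chromosome 17), which encodes GAD65, the form concentrated at nerve endings, spread more widely around its medians, from 491 to 1730 in CA1 (median 1096), from 555 to 1775 in CA3 (median 1122) and from 545 to 1721 in DG (median 1032). Its differences were 0.12 for CA1 from DG (95% interval -0.05 to 0.30) and 0.13 for CA3 from DG (-0.05 to 0.31), and neither table called it. These intervals are over all rats, and within the rats below 9000 Gad2 was called higher in CA3 than in DG by 0.39.

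Gad1 and Gad2 moved together from library to library. After the mean of each subfield and group was taken away, their log2 levels had a Pearson correlation of 0.71 in the Illumina table and 0.76 in the Ion Proton table over 102 libraries, and each was among the 2 genes most like the other out of 13906. The libraries of a rat and of a table share tissue, depth and preparation, so that this is a description. The start regions of these 2 genes and of the peptide genes Sst and Vip, whose levels also rose and fell together (0.66 and 0.55), are printed below, without a measure of their likeness. They are taken from RefSeq on build GRCr8, which is not the build of the read counts, run 5′ to 3′ from 250 bases before to 50 bases after the start on the plus strand, and carry in capitals each TGACG (the core of the cAMP response element) and each CCGCCC (the GC box) found on either strand.
Gad1, chr3:75777202-75777501: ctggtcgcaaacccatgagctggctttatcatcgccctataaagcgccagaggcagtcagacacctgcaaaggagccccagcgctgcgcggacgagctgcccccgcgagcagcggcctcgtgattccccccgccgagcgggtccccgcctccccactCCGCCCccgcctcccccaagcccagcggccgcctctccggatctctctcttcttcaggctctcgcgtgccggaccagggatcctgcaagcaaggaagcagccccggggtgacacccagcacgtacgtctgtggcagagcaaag
Gad2, chr17:89671468-89671767: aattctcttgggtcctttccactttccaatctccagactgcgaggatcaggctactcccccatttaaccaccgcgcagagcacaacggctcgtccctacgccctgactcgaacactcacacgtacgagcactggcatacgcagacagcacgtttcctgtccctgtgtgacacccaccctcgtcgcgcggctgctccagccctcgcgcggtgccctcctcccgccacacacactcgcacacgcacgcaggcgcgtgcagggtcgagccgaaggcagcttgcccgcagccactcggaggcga
Sst, chr11:90461296-90461595: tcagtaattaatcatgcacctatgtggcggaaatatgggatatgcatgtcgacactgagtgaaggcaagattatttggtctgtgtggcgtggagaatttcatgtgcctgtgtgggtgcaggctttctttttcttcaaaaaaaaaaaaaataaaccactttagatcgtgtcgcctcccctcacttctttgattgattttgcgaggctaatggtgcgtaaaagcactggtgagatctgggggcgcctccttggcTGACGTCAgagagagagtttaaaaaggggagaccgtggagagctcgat
Vip, chr1:44470230-44470529: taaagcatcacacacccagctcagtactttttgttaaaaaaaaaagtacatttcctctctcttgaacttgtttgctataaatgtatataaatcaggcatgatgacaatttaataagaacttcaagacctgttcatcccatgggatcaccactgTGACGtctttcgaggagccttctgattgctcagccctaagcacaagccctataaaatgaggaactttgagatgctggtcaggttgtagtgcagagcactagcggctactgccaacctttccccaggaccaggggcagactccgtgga
The TGACG letters lay in 4 of the 9 members with a start region in the table (Slc32a1, Sst, Pvalb and Vip) and in 21.2% of all 33469 start regions. In Sst, matches on both strands overlapped to spell TGACGTCA, the full cAMP response element for which this gene's promoter is known. Here the matches began 2 and 5 bases after the listed start and not before it. The CCGCCC letters lay in 6 of 9 (Gad1, Slc32a1, Pvalb, Npy, Reln and Lhx6) and in 33.1% of all. The Sst and Vip regions were 45.7% and 44.0% G or C, under the median of 51.7% over all start regions, and those of Gad1 and Gad2 were 67.7% and 63.7%. Cck was not matched.

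**Figure D2:**
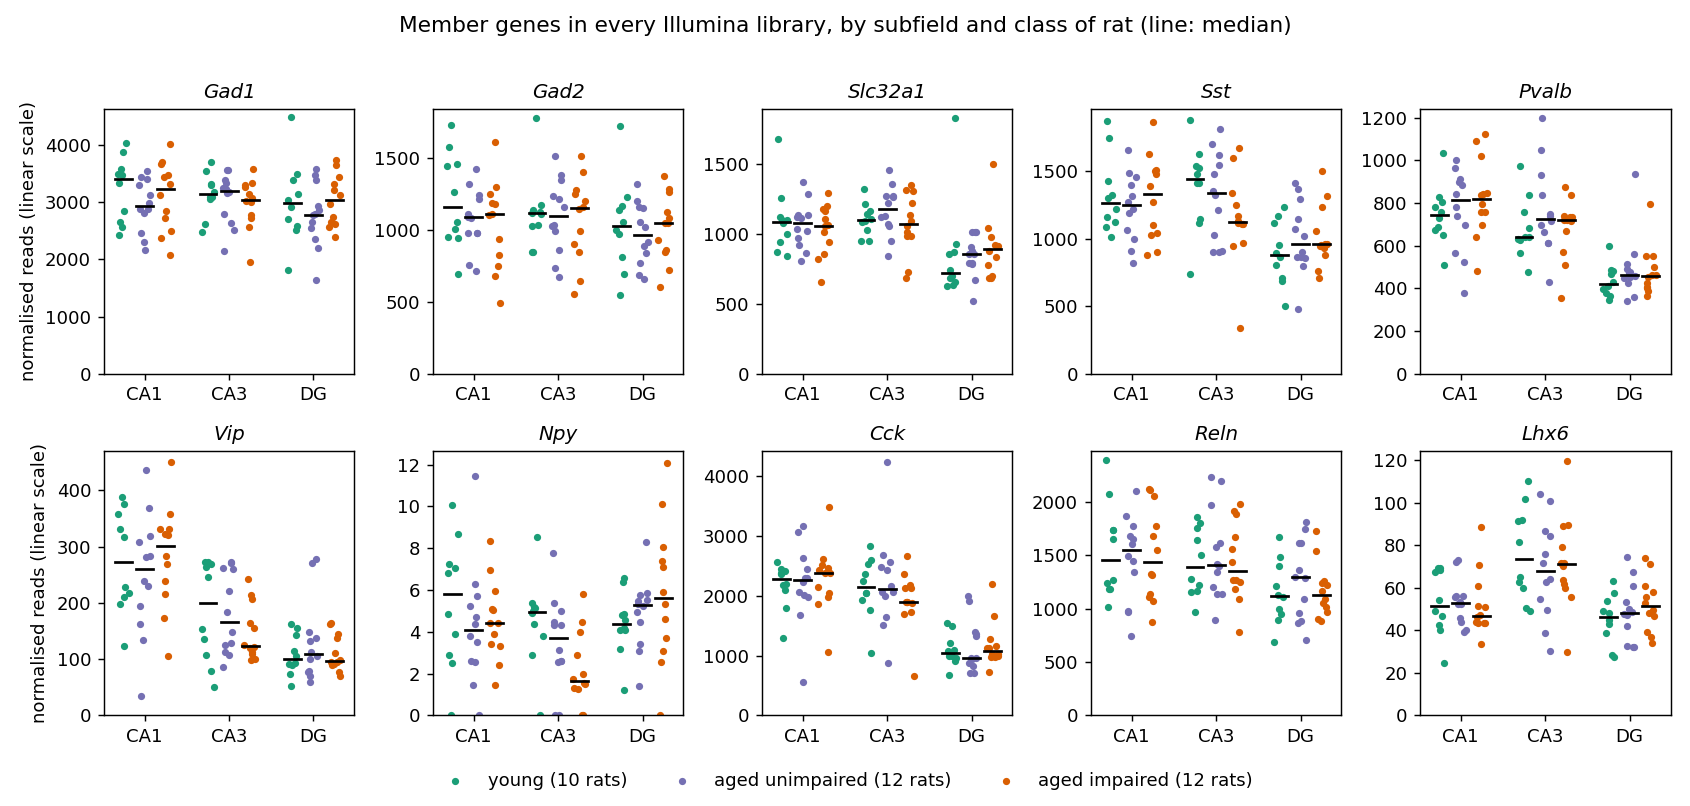
Normalised reads in the Illumina table (y axis, linear and starting at 0, with a scale of its own for each gene) of the 10 members in the 34 CA1, 34 CA3 and 34 DG libraries (x axis), 1 point per library, with young, aged unimpaired and aged impaired rats side by side in 3 colours and a black line at the median of each group. Pvalb, Vip and Cck sit lower in DG than in CA1, the 3 groups of rats overlap within each subfield, and the scale of Npy ends near 12 normalised reads.

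Slc32a1 (ENSRNOG00000015393, chromosome 3), the vesicular GABA transporter, was called lower in DG than in both CA fields, which neither enzyme was. Whether its difference was larger than theirs was not tested. It ranged from 654 to 1675 normalised reads in CA1 (median 1068), from 688 to 1458 in CA3 (median 1114) and from 519 to 1825 in DG (median 859). The DG range contained the CA3 range, but 31 of 34 CA3 libraries lay above the DG median. Slc32a1 was higher in CA3 than in DG by 0.39 log2 (SE 0.068, limma adjusted p = 7.26e-07) and in CA1 than in DG by 0.31 (SE 0.068, adjusted p = 5.23e-05), with Ion Proton differences of 0.49 and 0.35. In the WT table the CA3 difference was 0.31 (adjusted p = 0.00167) but the CA1 difference was -0.02 (adjusted p = 0.878), so that the higher CA1 level was seen in the poly-A tables and not in the WT table.

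Among the peptide genes, Vip had the largest log2 difference between subfields of the 9 members tested, in both poly-A tables. Vip (ENSRNOG00000018808, chromosome 1), made by interneurons that mostly inhibit other interneurons, ranged from 34.9 to 450 normalised reads in CA1 (median 282), from 50.5 to 273 in CA3 (median 152) and from 51.5 to 278 in DG (median 103). In 33 of 34 CA1 libraries it lay above the DG median, and it was higher in CA1 than in DG in 32 of 34 rats with a median within-rat ratio of 2.56. The CA1 to DG difference was 1.17 log2 (SE 0.15, limma adjusted p = 1.57e-10) in the Illumina table, 0.89 in the Ion Proton table and 1.07 in the WT table. CA3 was between: 0.52 above DG (adjusted p = 0.00236) and 0.65 below CA1 (adjusted p = 0.000253) in the Illumina table, neither of which passed in the Ion Proton table (adjusted p = 0.121 and 0.0796). That order holds over all rats and not within each number series: the CA3 minus DG difference was 0.01 in the rats below 9000, and the CA1 minus CA3 difference was -0.24 in those from 9000 up.

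Cck (ENSRNOG00000019321, chromosome 8), a peptide of basket cells that is also made by pyramidal neurons, was high in both CA fields. It ranged from 555 to 3489 normalised reads in CA1 (median 2297), from 658 to 4248 in CA3 (median 2068) and from 684 to 2203 in DG (median 1027). It was higher than in DG in 31 of 34 rats for CA1 and likewise in 31 of 34 for CA3, with median within-rat ratios of 2.19 and 1.94. The log2 differences from DG were 0.95 (SE 0.109, limma adjusted p = 3.01e-12) and 0.85 (SE 0.109, adjusted p = 1.21e-10), with 0.68 and 0.69 in the Ion Proton table. CA1 and CA3 differed by 0.10 (95% interval -0.12 to 0.31).

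Sst (ENSRNOG00000001837, chromosome 11), the peptide of dendrite-targeting interneurons, ranged from 819 to 1869 normalised reads in CA1 (median 1274), from 340 to 1882 in CA3 (median 1289) and from 482 to 1503 in DG (median 949). In the Illumina table it was above DG by 0.41 log2 in CA1 (limma adjusted p = 0.000125) and by 0.37 in CA3 (adjusted p = 0.000442), and it was higher in 28 of 34 rats in each case. The Ion Proton differences were 0.03 (adjusted p = 0.888) and 0.30 (adjusted p = 0.069), so Sst was not called. There, 23 of 34 rats had more Sst in CA1 than in DG, and without the CA1 library of rat R2232, the lowest at 159 normalised reads, the CA1 difference was 0.10 (adjusted p = 0.521). Between CA3 and DG, Sst was called in 5 of the 11 alternatives run, among them edgeR and DESeq2 on whole reads. In the WT table the differences were 0.23 (adjusted p = 0.00482) and 0.31 (adjusted p = 0.000134).

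Npy (ENSRNOG00000009768, chromosome 4), a peptide of several interneuron classes and of neurogliaform cells, was near the limit of detection in the Illumina table. Its normalised reads ranged from 0 to 11.5 in CA1 (median 4.42), from 0 to 8.52 in CA3 (median 3.45) and from 0 to 12.1 in DG (median 4.89), and 13, 21 and 8 of 34 libraries held 3 reads or fewer. In the Ion Proton table every library held more than 3 reads: Npy ranged from 8.92 to 66.5 in CA1 (median 43.5), from 8.25 to 86.1 in CA3 (median 41.9) and from 15.5 to 105 in DG (median 48.9). Scaled to the counted reads of each library (RPM), the Ion Proton median was 13.3 times the Illumina median for Npy, against 0.778 (Pvalb) to 1.47 (Reln) times for the other members. The WT median was 0.544 RPM, nearer to the Illumina 0.336 than to the Ion Proton 4.47. The cause was not tested. In the Ion Proton table Npy differed from DG by -0.23 in CA1 (95% interval -0.50 to 0.05) and by -0.20 in CA3 (-0.47 to 0.07), and neither passed. With no filter, the Illumina differences from DG were -0.14 in CA1 and -0.59 in CA3, and neither was called. Npy was lower in CA3 than in DG in 22, 23 and 26 of 34 rats in the Illumina, Ion Proton and WT tables. In CA1 it was lower than in DG in 20, 19 and 16 of 34.

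Pvalb (ENSRNOG00000006471, chromosome 7), the calcium-binding protein of fast-spiking basket and axo-axonic cells, was lower in DG than in either CA field. It ranged from 378 to 1122 normalised reads in CA1 (median 782), from 357 to 1197 in CA3 (median 716) and from 342 to 935 in DG (median 456). The lowest values of the 3 subfields were alike, but 33 of 34 CA1 libraries and 32 of 34 CA3 libraries lay above the DG median. Pvalb was higher in CA1 than in DG by 0.72 log2 (SE 0.080, limma adjusted p = 6.21e-13) and in CA3 by 0.59 (SE 0.080, adjusted p = 7.32e-10), with Ion Proton differences of 0.67 and 0.44. Within rats the median CA1 to DG ratio was 1.78, and 31 of 34 rats had the higher level in CA1.

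Reln (ENSRNOG00000021441, chromosome 4), the secreted matrix protein of interneurons and Cajal-Retzius cells, was called higher in both CA fields than in DG. It ranged from 740 to 2393 normalised reads in CA1 (median 1521), from 777 to 2234.9 in CA3 (median 1403) and from 685 to 1810 in DG (median 1145). The ranges shared most of their length, and 26 of 34 rats had more Reln in CA1 than in DG. The difference from DG was 0.32 log2 in CA1 (SE 0.092, limma adjusted p = 0.00235) and 0.29 in CA3 (SE 0.092, adjusted p = 0.00601). In the Ion Proton table they were 0.53 and 0.35 (adjusted p = 9.30e-05 and 0.0103). In the WT table these were 0.15 and 0.13 and did not pass (adjusted p = 0.0923 and 0.13). Of 5 Cajal-Retzius markers, 3 were listed in the tables and 0 passed the filter on low values.

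Lhx6 (ENSRNOG00000005996, chromosome 3), the transcription factor, was the 1 member that limma passed as higher in CA3 than in each of the other subfields in the Illumina table. It ranged from 24.5 to 88.4 normalised reads in CA1 (median 51.2), from 29.7 to 120 in CA3 (median 71.0) and from 27.5 to 74.5 in DG (median 48.4). Of the CA3 libraries, 31 of 34 lay above the DG median. Lhx6 was above DG in CA3 by 0.52 log2 (SE 0.098, limma adjusted p = 3.47e-06; Ion Proton 0.73, adjusted p = 0.00914). CA1 was lower than CA3 by a log2 difference of -0.42 (adjusted p = 0.000352) in the Illumina table and -0.56 (adjusted p = 2.3e-05) in the WT table, but in the Ion Proton table -0.52 did not pass (adjusted p = 0.108). CA1 and DG differed by 0.11 (95% interval -0.09 to 0.30).

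Ordered by median Illumina level, DG was lowest for Gad1, Gad2, Slc32a1, Sst, Pvalb, Vip, Cck, Reln and Lhx6, which are the 9 members tested. For Gad1 and Gad2 no neighbours in that order differed beyond their spread. For Slc32a1, Sst, Pvalb, Cck and Reln the 2 CA fields did not differ beyond their spread and both stood above DG. The 3 levels of Vip each differed from their neighbours in the Illumina table. For Lhx6 the 2 lowest, CA1 and DG, did not differ beyond their spread.

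The subfield pattern of some members was not the same in the rats numbered below 9000 and in those from 9000 up. This was not particular to the members. Between CA1 and CA3 13.9% of all genes differed so in both poly-A tables, and between CA3 and DG 17.2%. Vip was the plainest case. In CA1 it ranged from 228 to 450 normalised reads (median 331) in the rats below 9000 and from 34.9 to 317 (median 204) in those from 9000 up, and all 16 of the latter lay under the median of the former. In CA3 the order was turned round: 50.5 to 183 (median 124) below 9000 and 86.4 to 273 (median 252) from 9000 up, with 13 of 16 libraries above the highest of the other series. The log2 difference of CA1 from CA3 was therefore 1.45 in the first series and -0.24 in the second. These differed by 1.70 (95% interval 1.20 to 2.19, limma adjusted p = 2.82e-08), by 1.84 in the Ion Proton table (adjusted p = 4.71e-05) and by 1.68 in the WT table (adjusted p = 1.25e-07). In these libraries the CA1 pyramidal markers, summed, had a CA3 median of 3818 normalised reads below 9000 and of 7517 from 9000 up, and the CA3 pyramidal markers, as given above, moved the other way. Without the libraries that lay nearer to another subfield, the 8 remaining CA3 libraries from 9000 up held 215 to 273 normalised reads of Vip, all above the highest of the other series. Vip was then higher in CA1 than in CA3 by 1.45 and lower by a log2 difference of -0.37 in the 2 series. By the ranges given above, these 8 libraries still held fewer summed CA3 pyramidal markers than any CA3 library below 9000. Leaving out the others therefore kept the marker difference between the series, and its part in the Vip levels was not tested.

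**Figure D3:**
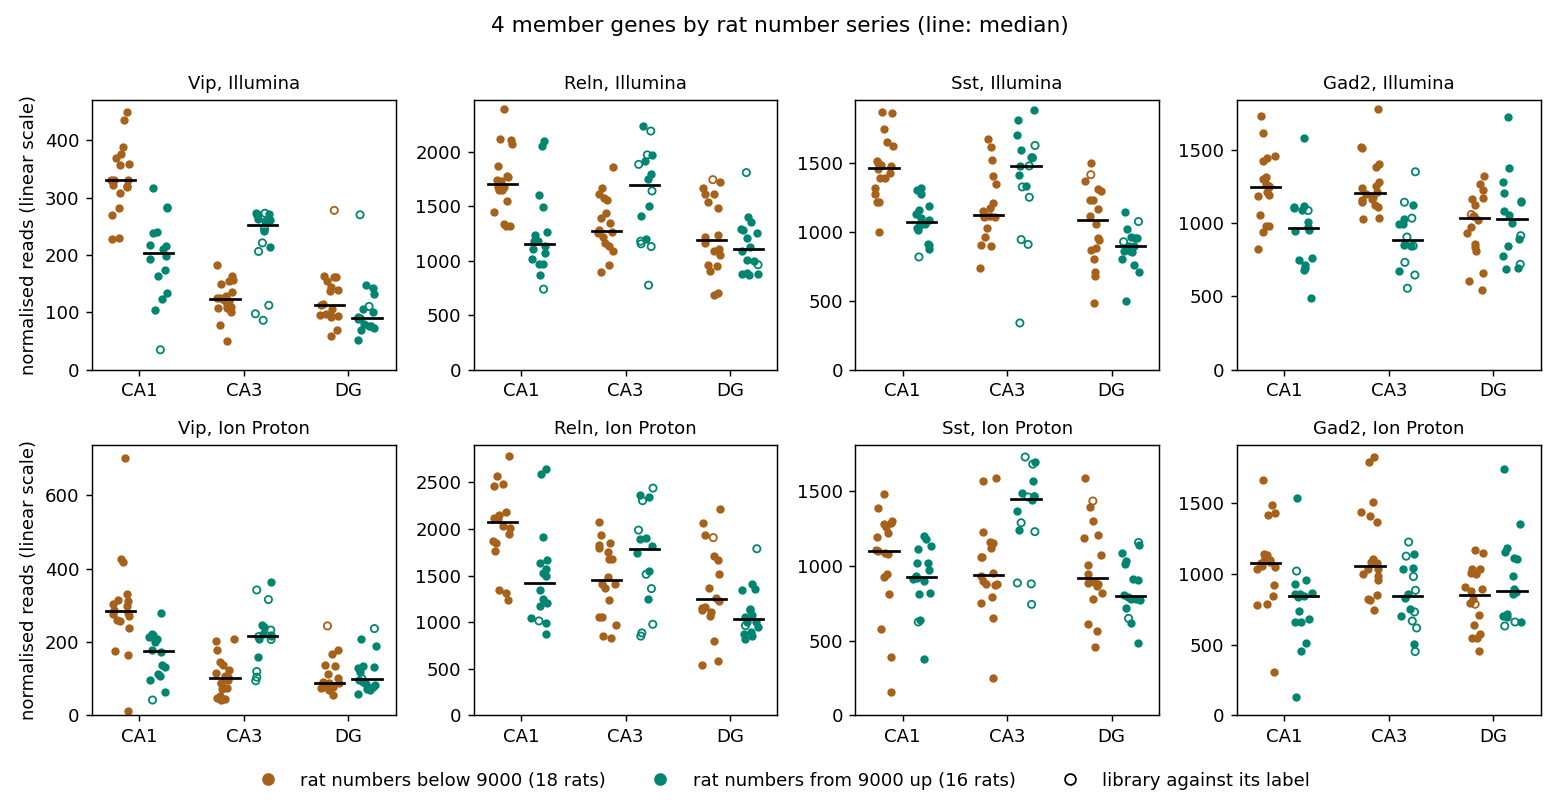
Normalised reads of Vip, Reln, Sst and Gad2 (y axis) in CA1, CA3 and DG (x axis) for rats numbered below 9000 and from 9000 up, 1 point per library with a line at the median, in the Illumina and Ion Proton tables. Open circles are libraries whose markers lay nearer to another subfield. The CA1 and CA3 medians of Vip stand in opposite order in the 2 series (331 and 124 below 9000, 204 and 252 from 9000 up).

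Over the 9 members, 2 of 9 had a difference between CA1 and CA3 that itself differed between the number series in both poly-A tables (Vip and Reln), against 13.9% of all genes. For CA3 and DG there were also 2 of 9 (Vip and Gad2), against 17.2%, and for CA1 and DG 0 of 9, against 0.108%, with an unadjusted limma p under 0.05 for 6 of 9 in the Illumina table, against 14.8% of all genes. The CA1 minus CA3 difference of Reln was 0.38 log2 in the rats below 9000 and -0.37 in those from 9000 up (difference 0.75, limma adjusted p = 0.000158, Ion Proton 0.67 with adjusted p = 0.0183). Its CA1 levels were 1316 to 2393 normalised reads (median 1707) against 740 to 2096 (median 1159). Gad2 in CA3 held 1027 to 1775 normalised reads (median 1206) in the rats below 9000 and 555 to 1349 (median 881) in those from 9000 up, and 12 of the 16 latter libraries lay under the lowest of the former. Its CA3 minus DG difference was 0.39 in the first series and -0.17 in the second (difference 0.56, adjusted p = 0.00215, Ion Proton 0.65 with adjusted p = 0.046).

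Gad1 in CA1 held 2811 to 4026 normalised reads (median 3460) in the rats below 9000 and 2069 to 3480 (median 2613) in those from 9000 up, and 10 of the 16 latter libraries lay under the lowest of the former. Its CA1 minus DG difference differed between the series by 0.35 in the Illumina table and by 0.39 in the Ion Proton table, which did not pass (limma adjusted p = 0.0881 and 0.126). For Gad2 the same contrast gave 0.50 and 0.72 (adjusted p = 0.096 and 0.114). The CA1 medians of both enzymes were lower in the rats from 9000 up, although their subfield differences over all rats were near 0.

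For Sst the 2 tables parted. Its CA1 to CA3 difference was 0.33 below 9000 and -0.29 from 9000 up in the Illumina table (difference 0.62, limma adjusted p = 0.00232), but the Ion Proton difference of 0.59 did not pass (adjusted p = 0.102). Without the 12 libraries, 3 of 9 members (Vip, Reln and Cck) were called for CA1 and CA3, against 10.6% of all genes, 2 of 9 (Vip and Sst) for CA3 and DG, against 12.7%, and 0 of 9 for CA1 and DG, against 0.267%. Gad2 was not called then, since the Ion Proton adjusted p was 0.0874. The labels do not say what the number series stands for. The study's methods describe rats from a pair of suppliers, tested at a site each, with as many rats of each age per site as the number series hold, but no source ties a rat number to a site. The part of the marker levels in these differences was not tested.

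Within the rats below 9000 alone, 2 of 9 members (Vip and Reln) were called higher in CA1 than in CA3, against 21.8% of all genes called in either direction. For CA1 and DG 4 of 9 were called (Pvalb, Vip, Cck and Reln, without Slc32a1), against 15.7%, and for CA3 and DG 3 of 9 (Cck, Gad2 and Slc32a1), against 23.4%. Within the rats from 9000 up, 0 of 9 were called between CA1 and CA3, against 3.95%, and Pvalb alone (1 of 9) between CA1 and DG, against 20.9%. For CA3 and DG 6 of 9 were called there (Cck, Lhx6, Pvalb, Reln, Sst and Vip), against 22.0%. Pvalb between CA1 and DG and Cck between CA3 and DG were called in each of the 11 alternatives run. Vip was also called between CA1 and CA3 once the 12 libraries were left out (1 of 9, against 19.6%).

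Some pairs of members moved together across libraries, not to the same degree in each table, and no grouping was tested. The 12 libraries nearer to another subfield were kept in. Subfield and group means were taken away first, and r is given for the Illumina and then the Ion Proton table over 102 libraries, as a description with no test, since libraries of a rat share an animal and all share the depth scaling. Gad1 and Slc32a1 had r of 0.76 and 0.43, and Gad2 and Slc32a1 had 0.76 and 0.23. In the WT table these pairs had 0.44 and 0.39. Sst had 0.64 and 0.48 with Gad1, 0.64 and 0.39 with Cck, and 0.63 and 0.42 with Lhx6. Vip and Cck had 0.79 and 0.68, and Reln and Lhx6 had 0.52 and 0.53. Pvalb moved with Cck (0.78 and 0.40), while its r with Gad1 was near 0 (0.03 and -0.04), although parvalbumin cells make GABA. Vip followed the summed CA1 pyramidal markers (0.65 and 0.51) and ran against the CA3 pyramidal markers (-0.65 and -0.53). Gad1 had -0.07 and -0.09 with the CA1 pyramidal markers and 0.65 and 0.56 with the summed genes of GABA uptake, breakdown and precursor supply. The number series was not taken away in these values. With its means also subtracted, r was 0.59 and 0.43 for Vip with the CA1 pyramidal markers, -0.55 and -0.35 with the CA3 pyramidal markers, 0.84 and 0.68 with Cck, and 0.68 and 0.73 for Gad1 with Gad2.

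**Figure D4:**
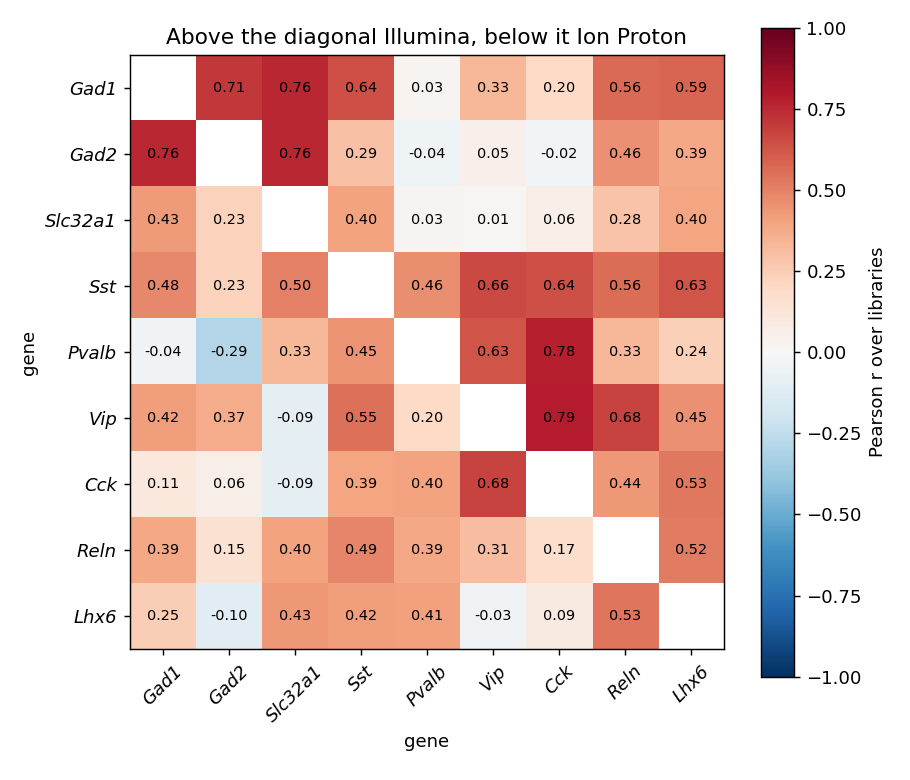
Pearson correlation of log2 levels between members after subtracting the mean of each subfield and group, over 102 libraries, with the Illumina table above the diagonal and the Ion Proton table below it, for the 9 members tested in both. Gad1, Gad2 and Slc32a1 have 0.71 to 0.76 with each other in the Illumina table, while Slc32a1 has 0.43 and 0.23 with Gad1 and Gad2 in the Ion Proton table. Vip with Cck stands out in both (0.79 and 0.68).

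By the mean of the 2 correlations, the genes most like each member out of 13906 were as follows. Gad1 came with Gad2, Plxnc1 and Zcchc18, and Gad2 with Slc8a1, Gad1 and RGD1561897. Slc32a1 came with Gaa (0.74 and 0.79), Cacna2d2 and Kcnh2, and Sst with Cygb (0.69 and 0.72), Cntnap4 and Fxyd6. Vip came with Sept6 (0.81 and 0.77), Glrx and Dclk1, while Cck came with RGD1561849 (0.84 and 0.71), Vip and Ttc22. Pvalb came with Efhd2 (0.74 and 0.68), Plekho1 and RGD1306151, Reln with Ptprn2 (0.71 and 0.78), Btbd11 and Ptprt, and Lhx6 with Hcn3 (0.67 and 0.84), Fgf11 and Cpne2. For the same member in the same library, the Illumina and Ion Proton levels had r of 0.883 for Reln, 0.840 for Gad1, 0.743 for Cck, 0.721 for Gad2, 0.676 for Vip, 0.667 for Slc32a1, 0.502 for Sst, 0.458 for Pvalb and 0.400 for Lhx6. The members with the closest match between tables therefore included Reln and Gad1, and those with the loosest were Lhx6 and Pvalb.

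Age and memory group came next. Each subfield was compared between aged and young, aged unimpaired and young, aged impaired and young, and aged impaired and aged unimpaired rats, and a call needed p under 0.01 in the Illumina table and, with that sign, a one-sided p under 0.05 in the Ion Proton table. None of the 9 members tested was called in any of the 12 comparisons, by limma or on whole reads by edgeR or DESeq2. The comparisons of both aged groups with young rats share the 10 young rats. Of all genes, 0.851%, 0.621%, 1.23% and 0.635% were called in CA1 in these 4 comparisons, 0.402%, 0.394%, 0.28% and 0.0216% in CA3, and 1.09%, 0.635%, 0.968% and 0.124% in DG. Over 108 tests of a member, limma gave 0 with an unadjusted p under 0.05 in the Illumina table (smallest p = 0.122, smallest adjusted p = 0.821). An unadjusted p under 0.05 was given by 5 of 120 tests in the Ion Proton table and by 4 of 108 in the WT table, and 0 of them stayed under 0.05 after adjustment. In the WT table they were Sst in CA1, at -0.21 for aged and -0.26 for aged unimpaired minus young rats. The others were Slc32a1 (0.36) and Lhx6 (0.57) in DG, for aged impaired minus aged unimpaired rats. The 95% intervals of the Illumina log2 differences reached 0.159 to 0.642 to either side of the estimate, and a call needed more than an interval clear of 0, so that changes of that size and somewhat larger may have gone uncalled.

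**Figure D5:**
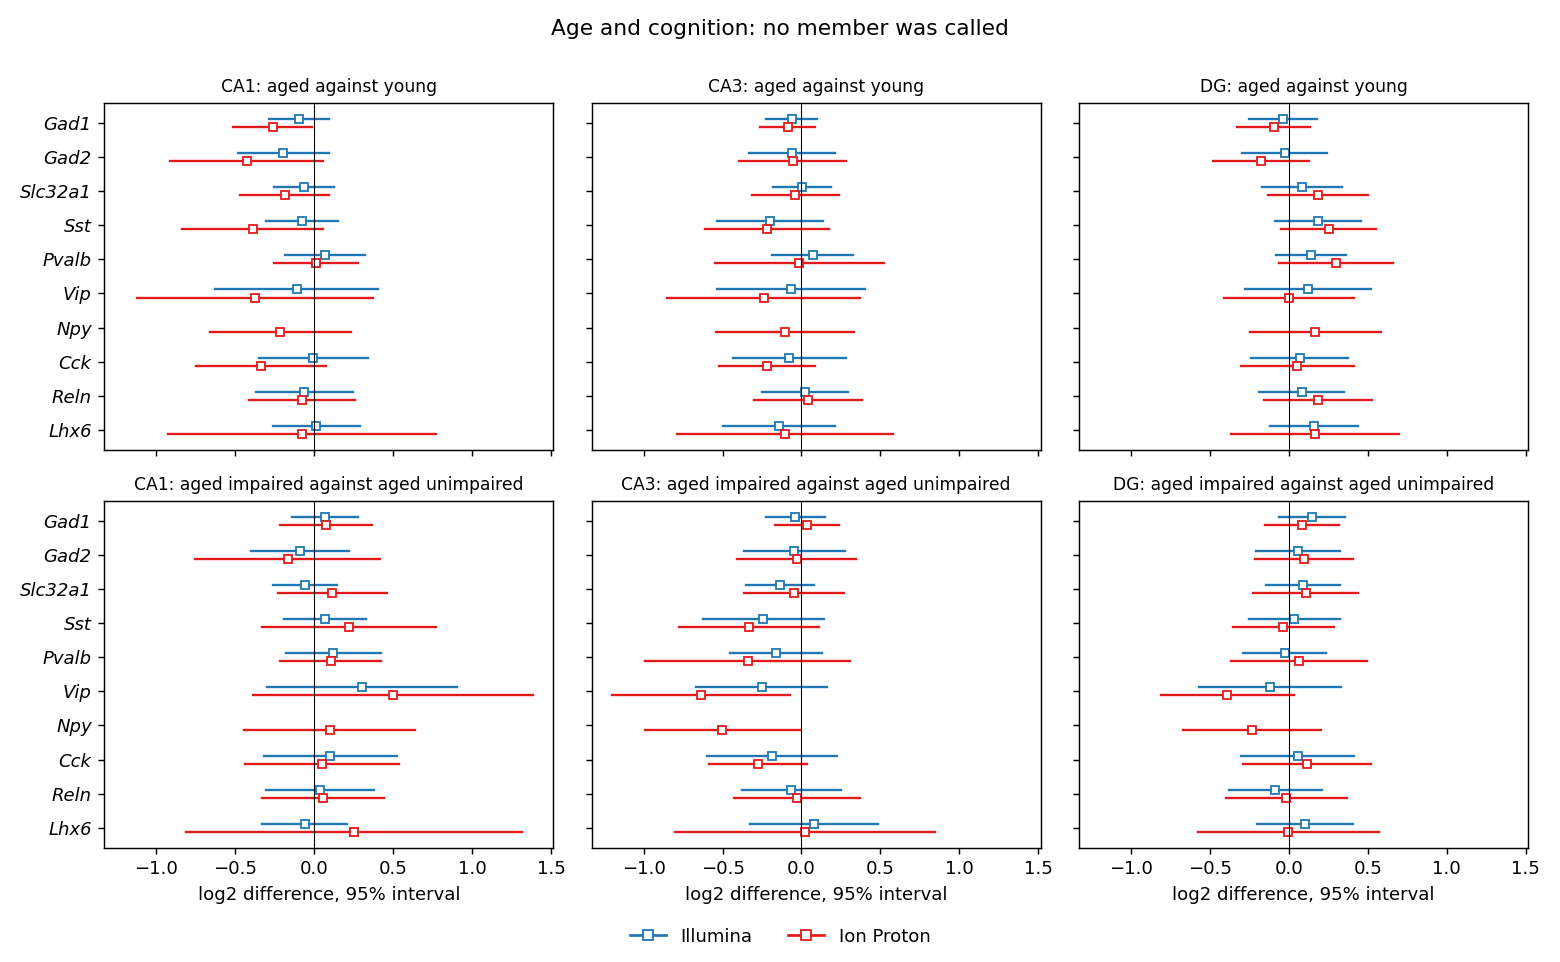
Log2 difference (x axis) with its 95% interval for each member in the Illumina and Ion Proton tables, in CA1, CA3 and DG, for aged against young rats in the upper row and aged impaired against aged unimpaired rats in the lower row. Every Illumina interval contains 0, and of the Ion Proton intervals shown those of Gad1 in CA1 (aged against young) and of Vip and Npy in CA3 (aged impaired against aged unimpaired) do not.

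The synthesis enzymes were not called with age. Gad1 in CA1 ranged from 2433 to 4026 normalised reads in young rats (median 3410), from 2171 to 3543 in aged unimpaired rats (median 2937) and from 2069 to 4017 in aged impaired rats (median 3227). The 3 groups overlapped, with 17 of 24 aged libraries under the young median. The aged minus young log2 difference was -0.10 (95% interval -0.29 to 0.09, limma adjusted p = 0.958). In the Ion Proton table it was -0.26 (95% interval -0.51 to -0.01, unadjusted limma p = 0.0409, adjusted p = 0.934), and -0.30 for the aged unimpaired rats (unadjusted p = 0.0287, adjusted p = 0.819).

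Of the members tested, Sst in CA3 had the largest Illumina difference between groups. It ranged from 735 to 1882 normalised reads in young rats (median 1445), from 898 to 1811 in aged unimpaired rats (median 1339) and from 340 to 1673 in aged impaired rats (median 1125). Of the 12 aged impaired libraries, 10 lay under the young median, but the groups overlapped. The aged impaired minus young log2 difference was -0.32 (95% interval -0.73 to 0.09, unadjusted limma p = 0.122), which did not pass. Without the CA3 library of rat R9875, which held 340 normalised reads of Sst and lay nearer to CA1 by its markers, the difference was -0.17 in the Illumina table (95% interval -0.44 to 0.11) and -0.36 in the Ion Proton table, where it had been -0.38. The lowest aged impaired CA3 library of the Ion Proton table was that of R1931, with 250 normalised reads of Sst against 1108 in the Illumina table and 15665 genes detected, and without it the Ion Proton difference was -0.21 (-0.56 to 0.13).

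Vip in CA3 ranged from 50.5 to 273 normalised reads in young rats (median 200), from 86.4 to 273 in aged unimpaired rats (median 166) and from 97.7 to 242 in aged impaired rats (median 124). The aged impaired minus aged unimpaired log2 difference was -0.25 (95% interval -0.67 to 0.16) in the Illumina table and -0.64 (-1.20 to -0.07, unadjusted limma p = 0.0288, adjusted p = 1) in the Ion Proton table. Vip in CA1 had the opposite sign, with an aged impaired minus aged unimpaired log2 difference of 0.30 in the Illumina table (95% interval -0.30 to 0.91), 0.50 in the Ion Proton table and 0.35 in the WT table. Without the CA1 library of aged unimpaired rat R9869, which lay nearer to another subfield and had the lowest Vip of that group in the Illumina and WT tables, these were 0.07 and 0.33 in the poly-A tables, and without that of R2232, the lowest in the Ion Proton table, the Ion Proton value was 0.17. Of the 12 rats in each aged group, 5 aged impaired and 6 aged unimpaired rats were numbered from 9000 up, the series with the higher CA3 levels of Vip. Npy, tested there in the Ion Proton table alone, had -0.50 (-0.99 to -0.01, unadjusted limma p = 0.0455, adjusted p = 1). Without the CA3 library of aged impaired rat R9781, which held 8.25 normalised reads of Npy and lay nearer to DG by its markers, it was -0.33 (-0.71 to 0.04). Cck in CA3 differed between aged impaired and young rats by -0.17 in the Illumina table (95% interval -0.55 to 0.21), or -0.03 without the library of R9875, and by -0.36 in the Ion Proton table (-0.68 to -0.04, unadjusted p = 0.0304, adjusted p = 1).

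The sign of the members' differences was uneven between subfields without any of them passing. In the CA3 libraries of the Illumina table, 9 of 9 members had a negative difference between aged impaired and young rats, from -0.32 to -0.01 log2, and in DG 9 of 9 had a positive one, from 0.00 to 0.21. The Ion Proton sign was the same for 8 of 9 in CA3, where that of Pvalb turned from -0.18 to 0.11 without the library of R1931, and for 6 of 9 in DG, while 2 of 9 in CA3 (Pvalb and Reln) and 1 of 9 in DG (Gad2) had the other sign in the WT table. The same libraries and the same young rats enter each of these 9 values, so they are not 9 separate observations. The share of all genes with each sign was not taken, so the unevenness may not be particular to the members. Whether the age or memory difference of a gene itself differed between subfields was tested in the Illumina table: 0 of 9 members and 0% of 14179 genes passed at an adjusted p under 0.05 in limma, and 0 of 9 members had an unadjusted p under 0.05, the smallest being 0.061 for Sst (aged minus young, CA3 minus DG, -0.39 log2). With a block on the rat that p was 0.0325, and in the Ion Proton table Sst (aged minus young, CA1 minus DG, -0.64, p = 0.0229) and Vip (aged impaired minus aged unimpaired, CA1 minus CA3, 1.13, p = 0.0167) had an unadjusted limma p under 0.05, with adjusted p of 0.961 to 1. Without the CA1 library of R2232 these 2 values were -0.54 (p = 0.0326) and 0.81 (p = 0.0565).

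Genes that work beside the members were looked at as lists. Of 28 other interneuron genes, 26 were tested, and 12 were higher and 1 lower in CA1 than in DG, against 13.4% and 13.5% of all genes, with a median log2 difference of 0.28 against 0.00 for all genes. Tac1, which encodes substance P, was higher in CA1 by 1.21 and Ndnf, a marker of neurogliaform cells, by 1.13, whereas Lamp5, a marker of neurogliaform cells and of layers of the neocortex, differed by -1.29. In CA3, 11 were higher and 1 lower than in DG, against 14.1% and 14.3% of all genes (median 0.38 against 0.01), among them Tac1 by 1.32, the serotonin receptor gene Htr3a by 0.82 and Crhbp by 0.60. Between CA1 and CA3, 1 was higher (Tac3 by 0.69) and 4 were lower, with Lamp5 at -0.72 and Htr3a at -0.49, against 7.26% and 7.09% of all genes. The oligodendrocyte markers, as given above, were also higher in both CA fields, and their part was not tested.

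The list for GABA uptake, breakdown and precursor supply had 7 of 8 genes tested. In CA3, 4 were higher than in DG, with the astrocytic transporter Slc6a11 at 0.36 and Abat, which breaks GABA down, at 0.30, and 1 was lower, against 14.1% and 14.3% of all genes. In CA1, Abat was higher than in DG by 0.35. With age, no gene of this list was called in the 12 comparisons, and of the other interneuron genes Maf, a transcription factor of the same lineage as Lhx6, was higher in DG of aged than of young rats by 0.28 and of aged impaired than of young rats by 0.31, with limma adjusted p = 0.304 and 0.412.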

How the data were processed

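RNA from CA1, CA3 and DG of 34 male rats, isolated in 1 laboratory, was sequenced as poly-A libraries on 2 platforms, and a further table is named WT. The deposited values are a signal per gene and library that the authors made from gene counts divided by a DESeq2 size factor. Per the submitters' processing notes and the study's methods, Illumina HiSeq reads were demultiplexed with bcl2fastq 2.17, trimmed with cutadapt 1.8.3, aligned to rn5 with STAR 2.5 and counted with featureCounts 1.4.4. The notes name DESeq2 1.16.1, and the methods name another version of it. Ion Proton reads were aligned with TopHat2 and Bowtie2. The aligner and library type of the WT table are not given in the sources used here. The sources name different kits (stranded and unstranded), so reads of a gene and of an antisense gene may not have been told apart. Chromosomes are those the tables give.

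Dividing each value by the smallest step of its library gave whole reads for 100% of values above 0 (relative tolerance 1e-06), which give the depths. All 102 libraries of each table were matched to a rat by name, and 0 columns were left unmatched. Normalised values were fitted with limma 3.58.1 (trend) in R 4.3.3 on log2(value + 1), for genes with a mean of 10 or more, with Benjamini-Hochberg adjustment over all genes tested. Fold changes on that scale understate those of low genes. Depth sets counting error only.

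Alternatives were edgeR 4.0.16 (TMM) and DESeq2 1.42.0 on whole reads, a pseudocount of 0.1, no filter, quantile normalisation, the WT table, a block on the rat, the number series as a covariate, each series alone, and fits without the 12 libraries against their label, without 7 deeply sequenced rats (over 25 M reads on average) or without the CA3 library of 1 young rat. The difference between number series, fits of Sst, Vip, Npy, Cck and Pvalb without 1 library, and correlations with the means of the series subtracted were added after the data were seen. The 3 libraries of a rat come from 1 animal: deviations of its CA1 and CA3 libraries from their group means had a median correlation of 0.087, of CA1 and DG 0.189 and of CA3 and DG -0.032. The tests were checked on simulated counts.

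The 10 members, the lists of other genes and markers (GABA uptake, breakdown and precursor supply, other interneuron genes, receptors, and markers of neurons, glia and neighbouring regions) and the tests were chosen with earlier results of these data known. All members are described, of each other list up to 3 called genes with the largest mean poly-A difference per comparison, and for each member the 3 genes of highest mean correlation. Some genes that this rule names are not reported here.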

Additional observations from a re-analysis of the deposited data

Results flagged for a closer look

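In 5 of 60 groups of 10 young libraries of a member, 1 library stood apart from the other 9 by Dixon's test at the 95% level, which chance gives in about 1 in 20 groups. Gad2 in CA3 had its highest Illumina value at 1775 normalised reads, with the next at 1176, and its Ion Proton value of 1825, also the highest, did not stand apart by that test. That library (rat R1923) was also the highest of 34 for the summed other interneuron genes, at 16194 against a median of 13203 in the others. Slc32a1 in CA1 had 1675 in rat R9879, with the next at 1253, but in the Ion Proton table the next young value was close to it (1241 and 1234). In the Illumina table the same library had the highest summed Cajal-Retzius markers in CA1 (77.6 against 1.65) and the lowest Lhx6 (24.5). Its Reln, which Cajal-Retzius cells also make, was not high (1181 against 1548, rank 26 of 34), and its summed thalamic markers ranked 4 of 34.

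The other 3 came from a single DG library (rat R9881). Slc32a1 reached 1825 in the Illumina table and 1307 in the Ion Proton table, with the next young values at 930 and 860, and Gad2 reached 1744 in the Ion Proton table, with the next at 1153. In the Illumina table this library also had the highest Gad1 of 34 DG libraries (4484 against a median of 2870) and the lowest Cck (684 against 1029) and Vip (51.5 against 105). It was the highest for the summed markers of choroid plexus (3589 against 118), thalamus (1961 against 903), hilar mossy cells (1255 against 387) and oligodendrocytes (205001 against 70433), and it ranked 33 of 34 for dentate granule markers (4315 against 11560). Its summed Cajal-Retzius markers were also the highest (85.8 against 1.28), while its Reln was not high (999 against 1165, rank 24 of 34). The part of these markers in its member levels was not tested.

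Between the rat number series, 4 subfield differences of members differed in both poly-A tables by limma's test of the difference. They were 2 of 9 between CA1 and CA3, against 13.9% of all genes, and 2 of 9 between CA3 and DG, against 17.2%. The CA1 minus CA3 difference was larger below 9000 by 1.70 log2 for Vip and by 0.75 for Reln, and the CA3 minus DG difference was larger by 0.56 for Gad2. That of Gad2 was not called without the 12 libraries. For Vip the CA3 minus DG difference was 0.01 below 9000 and 1.09 from 9000 up, which differ by -1.08 (adjusted p = 0.000211), by -0.98 in the Ion Proton table (adjusted p = 0.0452) and by -1.11 in the WT table (adjusted p = 0.000254).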

How the results depend on the processing

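For age and memory group, all 1215 recomputed values stayed on their side of the threshold, although signs of values that were not called could turn, and no member was called. For subfields this held for 268, while 17 passed the threshold that had not, 11 no longer passed and 1 reversed. The reversed value was Slc32a1 between CA1 and DG, at -0.019 with the WT table in place of the Illumina table. Between CA1 and CA3, where 0 members were called, quantile normalisation and DESeq2 called 2 each, edgeR 1, the fit without the 12 libraries 1 (Vip) and the rats below 9000 alone 2 (Vip and Reln), against 15.3%, 16.6%, 15.5%, 19.6% and 21.8% of all genes in that order. Between CA1 and DG (5 called) the WT table left 3 and the rats from 9000 up left 1 (Pvalb), against 25.1% and 20.9% of all genes. Between CA3 and DG (5 called) the rats below 9000 gave 3 (Cck, Gad2 and Slc32a1), edgeR and DESeq2 gave 7 each (with Sst and Vip added), quantile normalisation and the fit without deeply sequenced rats 6 each (with Sst added), and the rats from 9000 up 6 (with Sst and Vip added and Slc32a1 lost). Of all genes, 28.5% were called there, against 23.4% in the rats below 9000, 31.2% by edgeR, 32.3% by DESeq2, 30.1% after quantile normalisation, 28.3% without the deeply sequenced rats and 22% in the rats from 9000 up. With the WT table in place of the Illumina table, Reln was no longer called between CA3 and DG (limma adjusted p = 0.13). The cause of these changes was not tested, and neither was the part of the smaller number of rats within a series. With the replicate block on the rat, the counts of members were 0, 5 and 5 and no member's call changed. Of all genes, 1996 were called between CA1 and CA3, against 3023 within the rats below 9000 and 551 within those from 9000 up, and 26.9% between CA1 and DG, against 15.7% below 9000. The calls of all genes in the 12 age and memory comparisons numbered 3 to 171 and were 0 to 249 under the alternatives. Npy was under the minimum mean in the Illumina and WT tables. It was fitted there only with no filter in the Illumina table, where it was not called between subfields.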

Other observations

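The receptors of the member peptides and of reelin had 13 genes tested, and their subfield differences went in both directions. Npy2r, a receptor of neuropeptide Y found at nerve endings, was lower in CA1 than in CA3 by a log2 difference of -1.59 and than in DG by -1.62, and Npy5r was lower than in DG in CA1 (-0.69) and in CA3 (-0.27). Of the somatostatin receptors, Sstr2 was higher in CA1 than in CA3 by 0.92, Sstr3 was lower there (-0.59), Sstr4 was higher than in DG in CA1 by 0.75 and in CA3 by 0.34, and Sstr1 was higher in CA3 than in DG by 0.59. In all, 3 were higher and 3 lower in CA1 than in CA3, likewise 3 and 3 in CA1 than in DG, and 2 and 2 in CA3 than in DG, against 7.26% and 7.09%, 13.4% and 13.5%, and 14.1% and 14.3% of all genes, with medians of 0.00, -0.09 and -0.12. With age, Npy1r in CA1 (-0.26, limma adjusted p = 0.547) and Sstr4 in CA3 (-0.41, adjusted p = 1) were called lower in aged unimpaired than in young rats.

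Some glial markers were called with age in the same libraries in which no member was. Of 5 astrocyte markers 1 was called, Gfap, and of 5 oligodendrocyte markers 0, in each subfield. Gfap, the filament protein of astrocytes, was higher in aged than in young rats by 0.44 log2 in CA1, 0.45 in CA3 and 0.41 in DG (limma adjusted p = 0.105, 0.367 and 0.00209). Of 5 microglial markers, 3 were called higher in CA1, 1 in CA3 and 3 in DG, against 0.851%, 0.402% and 1.09% of all genes called, among them Cx3cr1 by 0.26, 0.31 and 0.31.

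The marker lists gave the following subfield counts. Of all genes, 7.26% were called higher and 7.09% lower in CA1 than in CA3. The shares were 13.4% and 13.5% in CA1 than in DG, and 14.1% and 14.3% in CA3 than in DG. Several of the smaller counts are near these shares. All 6 CA1 pyramidal markers tested were higher in CA1 than in CA3 and than in DG, and 4 of 6 were higher in CA3 than in DG. Of 9 CA3 pyramidal markers, 6 were lower in CA1 than in CA3 and 7 lower in CA1 than in DG. Of 9 dentate granule markers, 9 were higher in CA1 than in CA3 and 8 were lower in CA1 than in DG. Of 4 CA2 pyramidal markers, 1 was lower in CA1 than in CA3, 1 was higher and 1 lower in CA1 than in DG, and 3 were higher and 1 lower in CA3 than in DG. Of 4 hilar mossy cell markers, 2 were higher in CA1 and 2 in CA3 than in DG. The striatal list (7 tested) had 2 higher in CA1 than in CA3, 1 higher in CA1 than in DG, and 1 higher and 2 lower in CA3 than in DG. The thalamic list (5 tested) had 1 higher in CA1 than in CA3, 3 higher in CA1 than in DG, and 1 higher and 1 lower in CA3 than in DG. The neocortical and subicular list (6 tested) had 2 higher and 1 lower, 3 higher and 1 lower, and 2 higher and 1 lower in the same order. Of 4 choroid plexus markers, 2 were higher in CA1 and 1 in CA3 than in DG. Of 5 microglial markers, 3 were higher in CA1 and 4 in CA3 than in DG, and of 5 astrocyte markers 1 was higher in CA3 than in DG.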
